A study of Mus musculus with 4 samples.

Results

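The genes described are 40 amino acid transporter genes of the mouse array, those whose symbol belongs to the solute carrier families SLC1, SLC3, SLC7, SLC36, SLC38 and SLC43, of 18193 genes named on it. A gene was read through 1 probe set, the one with the highest mean over the 4 arrays. RefSeq holds 42 genes of these families, and the other 2, Slc38a8 and Slc38a11, had no probe set named here. The RNA came from mouse embryonic fibroblasts (MEFs), cells taken from the connective tissue of the mouse embryo, that were undergoing reprogramming toward a pluripotent state. They were fixed, permeabilized, stained and sorted into 4 fractions by protein staining for EpCAM, an adhesion protein of epithelial cells, for Klf4 and for Oct4, the product of Pou5f1. Klf4 and Oct4 are transcription factors used to reprogram fibroblasts. The fractions were Oct4+Klf4+EpCAM+ (called EpCAM+ below), Oct4+Klf4+EpCAM- (EpCAM-), Oct4+Klf4- (Klf4-) and Oct4-negative (Oct4-). No gating on EpCAM is named for the Klf4- cells, nor any on EpCAM or Klf4 for the Oct4- cells. The labels do not state the introduced factors, the day of sorting, the mouse strain or age, or whether the Oct4- cells shared a culture with the others. Each fraction was read on 1 array, which leaves every difference below without replicates and without a test. Precision is limited by having 4 arrays. The 4 comparisons below share arrays, so a reading that is off on 1 array enters several of them.

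Amino acid transporters carry amino acids across the plasma membrane and the lysosomal membrane. SLC1 proteins carry glutamate or small neutral amino acids with sodium, and SLC38 proteins carry glutamine and other neutral amino acids with sodium. Many SLC7 proteins are light chains that reach the membrane bound to an SLC3 heavy chain, while the cationic amino acid transporters of the same family work alone and carry arginine and lysine. When amino acids run short, the kinase GCN2 (Eif2ak4) raises translation of the transcription factor ATF4, which binds amino acid response elements in several transporter and enzyme genes. Pluripotent cells are known for a high demand for some amino acids, and imported leucine and arginine are read by the growth kinase complex mTORC1.

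The amino acid response element is the sequence by which this family is best known to respond to amino acid supply, so its core was looked for in the promoters of the members. RefSeq promoters (GRCm38.p6, 250 bases before to 50 after the start site) were held for 29 of the 40 genes, with 40 start sites in all. The other genes, among them Slc7a3, Slc43a3, Slc7a2, Slc7a5 and Slc1a5, had no promoter held and were not searched. The core TGATGCAA, on either strand, occurred in 4 of the 40 member promoters and in 0.895% of 32851 mouse promoters of the same length. The 4 belong to 3 genes, Slc1a4, Slc7a7 and Slc7a11, since overlapping promoters of Slc7a7 share 1 match. The promoter of Slc7a11, which encodes the cystine-glutamate exchanger xCT, held 2 matches, 1 on each strand, which began 66 and 47 bases before the start site. The octamer bound by Oct4, ATGCAAAT, occurred only in that promoter among the 29 genes searched, overlapping 1 of its 2 matches, and in 1.74% of all promoters. A Klf element, GGGTGTGG, occurred only in the promoter of Slc3a2 among the 29 genes searched and in 3.56% of all promoters. The motifs were chosen with the values below in view, and a match is a description of letters, not evidence of binding.

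One promoter with the core for each of the 3 genes is printed below, with that of Slc38a5, the member with the largest difference at the Klf4 gate, which had none of the 3 motifs. They lie at chr3:50443564-50443863, minus strand (Slc7a11), chr11:20332664-20332963, minus strand (Slc1a4), chr14:54417895-54418194, minus strand (Slc7a7), and chrX:8271131-8271430, plus strand (Slc38a5). Slc7a7 has 5 start sites in RefSeq, and the match begins 1 base before the one shown and 243 bases before another, whose promoter overlaps it. Each is given 5′ to 3′ on the strand of the gene, and capitals mark the core on either strand.
Slc7a11: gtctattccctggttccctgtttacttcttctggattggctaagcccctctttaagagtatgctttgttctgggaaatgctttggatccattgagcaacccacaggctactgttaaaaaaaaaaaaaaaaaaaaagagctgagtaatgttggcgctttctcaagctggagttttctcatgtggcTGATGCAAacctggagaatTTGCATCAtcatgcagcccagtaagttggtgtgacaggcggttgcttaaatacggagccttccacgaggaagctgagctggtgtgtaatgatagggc
Slc1a4: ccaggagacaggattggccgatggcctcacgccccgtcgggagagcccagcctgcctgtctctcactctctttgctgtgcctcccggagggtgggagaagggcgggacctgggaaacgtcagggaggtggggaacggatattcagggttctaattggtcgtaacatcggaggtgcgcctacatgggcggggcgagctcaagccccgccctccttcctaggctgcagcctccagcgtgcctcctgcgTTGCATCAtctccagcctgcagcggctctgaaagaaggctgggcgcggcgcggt
Slc7a7: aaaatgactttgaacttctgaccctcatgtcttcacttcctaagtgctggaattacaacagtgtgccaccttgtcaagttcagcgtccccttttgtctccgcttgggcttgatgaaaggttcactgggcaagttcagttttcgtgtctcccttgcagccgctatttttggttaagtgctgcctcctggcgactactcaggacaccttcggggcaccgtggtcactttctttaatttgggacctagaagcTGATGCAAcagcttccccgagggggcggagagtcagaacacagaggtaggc
Slc38a5: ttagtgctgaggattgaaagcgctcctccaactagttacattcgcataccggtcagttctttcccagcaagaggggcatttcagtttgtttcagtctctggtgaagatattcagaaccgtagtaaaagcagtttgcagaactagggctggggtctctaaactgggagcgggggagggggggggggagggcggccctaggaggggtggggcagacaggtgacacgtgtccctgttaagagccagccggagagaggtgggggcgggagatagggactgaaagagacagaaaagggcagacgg

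Levels are log2 values from robust multi-array average (RMA) processing, and a difference of 1 is 2-fold. Calls of higher or lower required a difference of at least 2-fold, with the brighter of both levels at or above a floor set at the median of all values (4.53). Readings without a matching transcript were gauged by 27 bacterial control probe sets, the brightest of which read 2.94. Pou5f1 had levels of 11.70, 11.66 and 11.48 in the EpCAM+, EpCAM- and Klf4- fractions and of 7.59 in the Oct4- fraction, and the brighter probe set of Epcam read 9.52 in the EpCAM+ fraction and 6.54 in the EpCAM- fraction. For Klf4 the brighter probe set read 10.60 and 10.20 in the EpCAM+ and EpCAM- fractions, against 6.24 in the Klf4- fraction. The dimmer one read 3.20, 2.67 and 5.69 in that order, the opposite way. In the Oct4- fraction they read 7.32 and 6.95, both above their Klf4- readings. Of 10 fibroblast markers, 9 were lower in the EpCAM+ than in the Oct4- fraction, and their summed linear level was 2240.2, 5445, 11461 and 17633 in the EpCAM+, EpCAM-, Klf4- and Oct4- fractions. The summed level of 10 epithelial markers was 8299, 3213, 382 and 478 in the same order, with Trp63 below the floor on all arrays. For 8 pluripotency markers it was 1026, 581, 89.1 and 82.6, with Nanog, Esrrb, Zfp42 and Dppa3 below the floor on all arrays. For 9 neuronal markers it was 3333, 3369, 3168 and 620.0, and for 6 trophoblast markers 546, 327, 67.6 and 80.1, with Cdx2 and Eomes below the floor on all arrays. The neuronal sum hides opposite differences between the EpCAM- and Klf4- fractions. In the EpCAM- fraction 2 of the 9 were higher, Tubb3 by 19.8-fold, and 4 were lower, Nefm by 28.6-fold. The part of these cell states in the transporter values was not tested, and fewer cells of a type and less RNA per cell cannot be told apart in sorted bulk RNA.

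Among the 40 transporter genes, Slc7a3, Slc43a3 and Slc38a5 were higher by the widest margins in the EpCAM- than in the Klf4- fraction, and Slc7a2, Slc1a3 and Slc38a6 were lower in the EpCAM+ fraction than in the Oct4- fraction. In all, 10 genes passed the 2-fold rule in at least 1 of 4 comparisons, 14 reached the floor without passing it, and 16 stayed below the floor on all 4 arrays. At the Oct4 gate (Klf4- against Oct4-), 1 member was higher and 3 were lower, that is 2.5% and 7.5% of the members, beside 2.25% and 3.04% of all 18193 genes. At the Klf4 gate (EpCAM- against Klf4-), 4 were higher and 1 was lower, 10% and 2.5% of the members, beside 5.30% and 4.32% of all genes. At the EpCAM gate (EpCAM+ against EpCAM-), 2 were higher and 1 was lower, 5% and 2.5%, beside 1.95% and 1.12%. Between the ends of the series (EpCAM+ against Oct4-), 5 were higher and 4 lower, 12.5% and 10%, beside 7.46% and 6.77%. With counts this small the shares are a description, and the members are not called different from all genes. The median log2 difference over all 40 members was -0.03, 0.05, 0.03 and 0.02 in these comparisons, beside 0.00, 0.01, 0.00 and 0.03 over all genes.

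**Figure D1:**
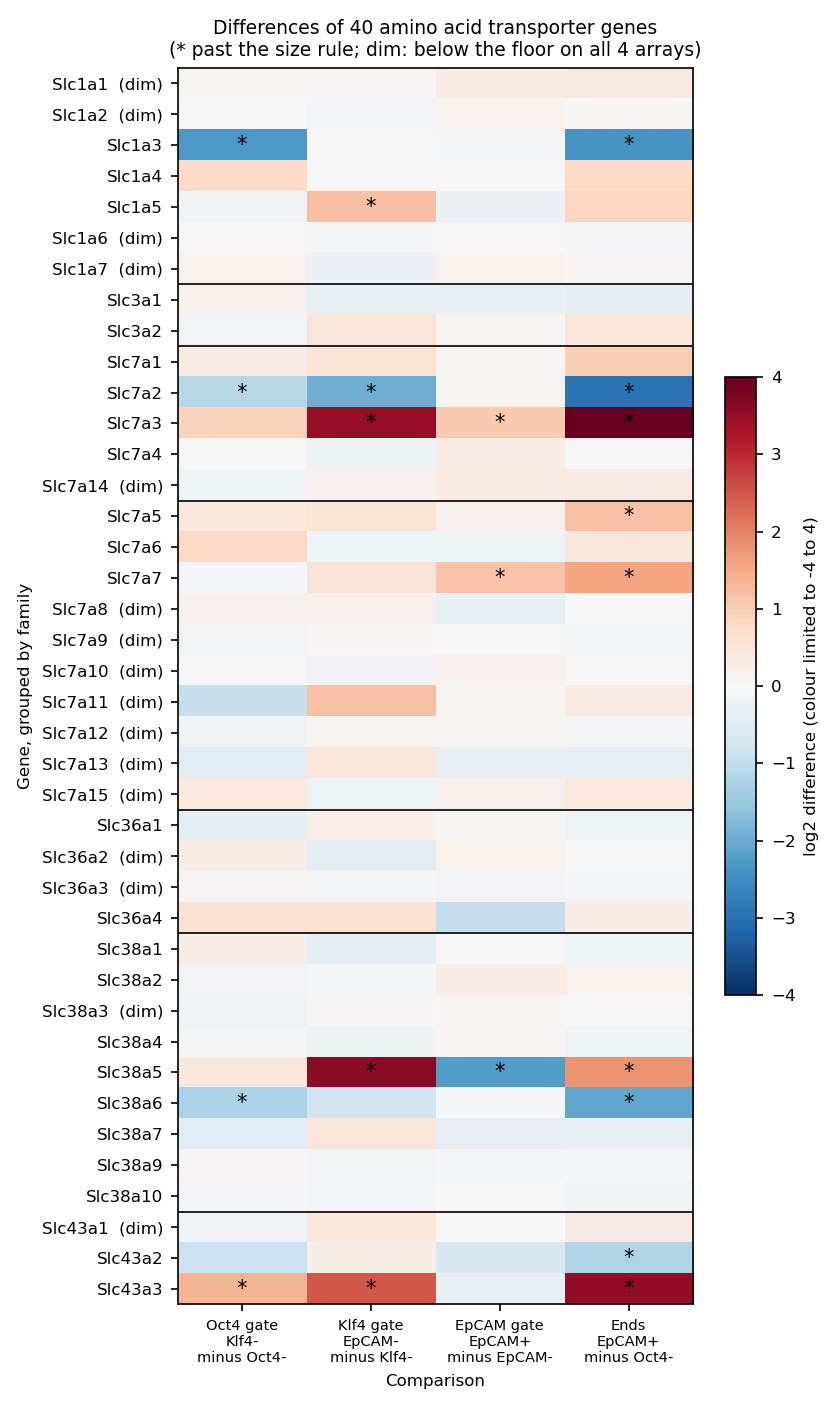
Log2 differences of the 40 transporter genes (rows, grouped by family) in 4 comparisons (columns), with red for higher and blue for lower in the first-named fraction. Asterisks mark differences past the 2-fold rule: they fall on 10 genes. Colours stop at 4, and the columns differ mainly through Slc7a3, Slc38a5, Slc43a3, Slc7a2 and Slc1a3, while most rows stay near 0.

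The cationic transporters differed in opposite directions. Slc7a3 (probe set 1417022_at), which encodes CAT-3, known from brain and early embryonic tissue, had levels of 9.34, 8.30, 4.83 and 3.89 in the EpCAM+, EpCAM-, Klf4- and Oct4- fractions. Each fraction thus had a higher level than the next one in that order. Its level was 11.1-fold higher in the EpCAM- than in the Klf4- fraction, 2.06-fold higher in the EpCAM+ than in the EpCAM- fraction, and 43.6-fold higher in the EpCAM+ than in the Oct4- fraction. That last difference ranked 32nd among the 1357 genes called higher between the ends. The Oct4 gate alone gave a log2 difference of 0.93, short of 2-fold. Slc7a3 was read by a single probe set, so no second reading of it was at hand.

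Slc7a2 (probe set 1450703_at) encodes CAT-2, known for supplying arginine to nitric oxide synthase and arginase in macrophages. It had levels of 3.51, 3.40, 5.35 and 6.46 in the EpCAM+, EpCAM-, Klf4- and Oct4- fractions, so that both Klf4+ fractions lay below the floor and both other fractions above it. Its level was 2.15-fold lower in the Klf4- than in the Oct4- fraction, 3.86-fold lower in the EpCAM- than in the Klf4- fraction, and 7.71-fold lower in the EpCAM+ than in the Oct4- fraction. All 4 of its probe sets were lower at the Oct4 gate, by log2 differences of -1.51 to -0.28, and all 4 at the Klf4 gate. In the EpCAM- fraction 3 of the 4 read below the brightest bacterial control, so their differences at the Klf4 gate are bounds, and the EpCAM gate is not read from them. Of 6 macrophage and leukocyte markers, Ptprc, Adgre1, Csf1r and Lyz2 were below the floor on all arrays. The summed level of the list was 151, 141, 97.4 and 269 in the order above. That sum rests mainly on Cd68, with log2 levels of 6.48, 6.32, 5.95 and 7.76. Cd14 was 2.68-fold lower at the Oct4 gate and 3.13-fold higher at the Klf4 gate. The part of such cells in the Slc7a2 result was not tested. Averaging the 4 probe sets of Slc7a2 left differences of -0.84 at the Oct4 gate and -1.74 at the Klf4 gate. Neither met the 2-fold rule any longer, the second because the averaged level in the Klf4- fraction lay below the floor.

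Slc7a1 encodes CAT-1, the widely expressed arginine and lysine carrier that also serves as the receptor of ecotropic murine retroviruses. The brightest of its probe sets read 10.64, 10.56, 10.01 and 9.67 in the EpCAM+, EpCAM-, Klf4- and Oct4- fractions, a log2 difference of 0.97 between the ends that missed the rule. All 3 of its probe sets were higher at each of the 3 gates, and between the ends their log2 differences ran from 0.97 to 1.34. Their average of 1.19 met the rule, so that averaging probe sets made Slc7a1 an additional call. Slc7a4, a relative for which no amino acid transport has been shown, ranged over 0.25 on the log2 scale across the arrays. Slc7a14, a lysosomal member, stayed below the floor.

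**Figure D2:**
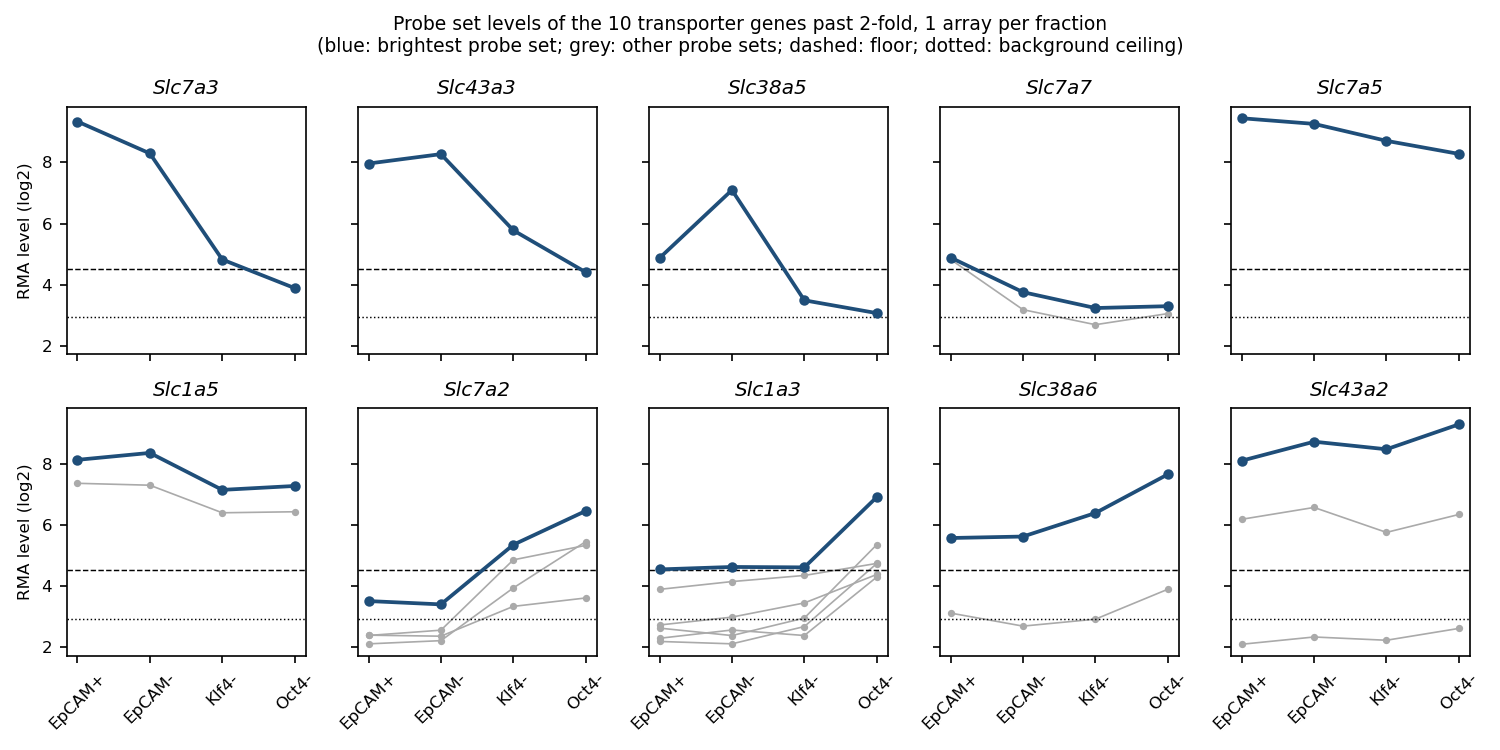
RMA levels (log2) of the 10 transporter genes past the 2-fold rule, in the order EpCAM+, EpCAM-, Klf4- and Oct4- fraction, 1 array each, with the brightest probe set in blue and the other probe sets in grey. The dashed line is the floor (4.53) and the dotted line the brightest bacterial control (2.94). Slc7a3 stands at 9.34 in the EpCAM+ fraction, against 3.89 in the Oct4- fraction, Slc38a5 peaks at 7.10 in the EpCAM- fraction, and the probe sets of Slc7a2 and of Slc1a3 are highest in the Oct4- fraction.

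The heavy chains differed little. Slc3a2, which encodes the heavy chain 4F2hc (CD98), had levels of 10.03, 9.94, 9.46 and 9.56 in the EpCAM+, EpCAM-, Klf4- and Oct4- fractions. Slc3a1, the heavy chain rBAT of the cystine transporter of kidney and gut, had 6.16, 6.42, 6.73 and 6.56 in the same order. The log2 differences of Slc3a2 and Slc3a1 between the ends, 0.46 and -0.40, were both under 2-fold.

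Among the light chains, Slc7a5 and Slc7a7 were higher at the EpCAM+ end. Slc7a5, which encodes the large neutral amino acid carrier LAT1 that imports leucine, had levels of 9.45, 9.26, 8.71 and 8.28 in the EpCAM+, EpCAM-, Klf4- and Oct4- fractions. No gate by itself reached 2-fold for Slc7a5, with log2 differences of 0.43, 0.55 and 0.18 at the Oct4, Klf4 and EpCAM gates, but the ends differed by 2.24-fold. Its 1 probe set gave no second reading. Slc7a7 encodes y+LAT1, which exports cationic amino acids from gut and kidney epithelium and is mutated in lysinuric protein intolerance in humans. It had levels of 4.89, 3.76, 3.24 and 3.30, above the floor in the EpCAM+ fraction alone. The EpCAM+ level of Slc7a7 was 2.19-fold above the EpCAM- level and 3.01-fold above the Oct4- level, and its other probe set gave log2 differences of 1.64 and 1.77. Both of its probe sets carry a suffix for possible reading of several transcripts.

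Slc7a6, the light chain y+LAT2, had levels of 7.65, 7.82, 7.99 and 7.23 in the EpCAM+, EpCAM-, Klf4- and Oct4- fractions. It stayed under 2-fold in every comparison made, and between the ends its 2 probe sets gave log2 differences of 0.42 and -0.17. The other 7 light chain genes were below the floor on all arrays: Slc7a8 (LAT2), Slc7a9, the partner of rBAT, Slc7a10 (Asc-1), Slc7a11, Slc7a12, Slc7a13 and Slc7a15. Slc7a11, whose promoter above holds the response element core in each orientation, had levels between 1.82 in the Klf4- fraction and 3.07 in the EpCAM+ fraction, close to or below the brightest bacterial control. The dimness of its probe sets leaves its differences, such as 1.18 on the log2 scale between the EpCAM- and Klf4- fractions, without a call.

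In the SLC1 family the glutamate carrier Slc1a3 was lower at the Oct4 gate and the glutamine carrier Slc1a5 higher at the Klf4 gate. Slc1a3 (probe set 1426341_at) encodes GLAST, a glutamate transporter best known from astrocytes and radial glia. It had levels of 4.55, 4.63, 4.61 and 6.91 in the EpCAM+, EpCAM-, Klf4- and Oct4- fractions, so that the Oct4- fraction stood apart from the other 3. Its level was 4.91-fold lower in the Klf4- and 5.15-fold lower in the EpCAM+ than in the Oct4- fraction. All 6 of its probe sets were lower at the Oct4 gate, by log2 differences of -2.40 to -0.39, though 2 of them read below the brightest bacterial control in the Klf4- fraction. The fibroblast marker sum above was also highest in the Oct4- fraction. Of its 10 markers, however, 4 were lower and 2, Thy1 and Postn, higher at the Oct4 gate. The part of fibroblast content in this result was not tested. Since it is not stated that the Oct4- cells shared a culture with the others, a difference between cultures and one between gates cannot be told apart here.

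Slc1a5 encodes ASCT2, an exchanger of glutamine and other neutral amino acids. It had levels of 8.13, 8.36, 7.15 and 7.28 in the EpCAM+, EpCAM-, Klf4- and Oct4- fractions, both Klf4+ fractions being higher than the other pair. Its level was 2.31-fold higher in the EpCAM- than in the Klf4- fraction, and its second probe set gave a log2 difference of 0.90 there. Between the ends the log2 differences of its 2 probe sets were 0.85 and 0.93. Slc1a4 encodes ASCT1, a carrier of alanine, serine and cysteine, and its brightest probe set had 9.91, 9.91, 9.89 and 9.15. Its 3 probe sets were all higher in the EpCAM+ than in the Oct4- fraction, by log2 differences of 0.75 to 1.20, yet at the Klf4 gate the brightest gave 0.02 and another 0.71. The remaining SLC1 genes, Slc1a1, Slc1a2, Slc1a6 and Slc1a7, are glutamate transporters of neurons, astrocytes and retina, and all 4 stayed below the floor.

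Of the SLC38 family, Slc38a5 (probe set 1454622_at) had the largest difference of any member at the Klf4 gate and was lower again at the EpCAM gate. It encodes SNAT5 (SN2), which carries glutamine, asparagine, histidine, serine and glycine and can run in either direction. Its levels were 4.87, 7.10, 3.49 and 3.07 in the EpCAM+, EpCAM-, Klf4- and Oct4- fractions, with the EpCAM- fraction highest. The EpCAM- level of Slc38a5 was 12.2-fold above the Klf4- level, 78th of 965 genes called higher there. Its EpCAM+ level was 4.67-fold below the EpCAM- level, 18th of 204 genes called lower at that gate, and 3.48-fold above the Oct4- level. It too had 1 probe set. Slc38a5 and Slc7a3 are the 2 members on the X chromosome, with 529 protein-coding genes between them in RefSeq.

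Slc38a6, a less studied member, had levels of 5.57, 5.62, 6.39 and 7.66 in the EpCAM+, EpCAM-, Klf4- and Oct4- fractions. Its level was 2.40-fold lower in the Klf4- and 4.23-fold lower in the EpCAM+ than in the Oct4- fraction. Its dimmer probe set, below the floor on all arrays, was also lower in both comparisons, by -0.78 on the log2 scale between the ends. Its Klf4- level lay below the brightest bacterial control, so its size at the Oct4 gate is a bound. Slc38a1, Slc38a2 and Slc38a4, which encode the transporters SNAT1, SNAT2 and SNAT4 and lie side by side with no protein-coding gene between them in RefSeq, ranged over 0.39, 0.26 and 0.24 on the log2 scale across the arrays by their brightest probe sets. SNAT2 is known for induction by amino acid shortage, and the log2 differences of the brightest Slc38a2 probe set were -0.10, -0.03 and 0.26 at the Oct4, Klf4 and EpCAM gates. Its probe sets disagreed between the ends, where the brightest gave 0.13 and the other 2 gave -0.21 and -0.72. The brightest probe set of Slc38a9, the lysosomal arginine sensor of mTORC1, ranged over 0.17. The 7 probe sets of Slc38a9 disagreed between the ends, with log2 differences from -0.63 to 0.58. The brightest probe set of Slc38a10, the least studied of these, ranged over 0.17 as well. Slc38a7, a lysosomal glutamine carrier, ranged over 0.47, and Slc38a3 stayed below the floor.

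The SLC43 genes gave one of the larger differences of the set. Slc43a3 (probe set 1422788_at), known in humans as a carrier of purine nucleobases rather than amino acids, had levels of 7.96, 8.27, 5.78 and 4.41 in the EpCAM+, EpCAM-, Klf4- and Oct4- fractions. Its level was 2.59-fold higher in the Klf4- than in the Oct4- fraction, 5.62-fold higher in the EpCAM- than in the Klf4- fraction and 11.7-fold higher in the EpCAM+ than in the Oct4- fraction. At the EpCAM gate its log2 difference was -0.31, and its single probe set gave no second reading. The summed level of 5 endothelial markers was 611, 731, 209 and 37.7 in the order above, with Pecam1, Cdh5 and Kdr below the floor on all arrays. That sum rests on Tek, with log2 levels of 8.74, 9.22, 7.49 and 3.33, and on Cldn5. The epithelial, pluripotency and trophoblast sums above were also higher in both Klf4+ fractions than in the Klf4- and Oct4- fractions. The part of any of these in the Slc43a3 result was not tested. Slc43a1, which encodes the leucine carrier LAT3 and is separated from Slc43a3 by 1 protein-coding gene, stayed below the floor. Slc43a2, which encodes LAT4, had levels of 8.10, 8.72, 8.48 and 9.29, and was 2.28-fold lower in the EpCAM+ than in the Oct4- fraction. Of its other probe sets, 1 gave only -0.16 on the log2 scale there and 1 read below the brightest bacterial control on all arrays. The average of all 3, that dim one included, was -0.62 and missed the rule.

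The proton-coupled SLC36 genes had no member past the rule. Slc36a4, which encodes PAT4, came closest, with levels of 5.97, 6.89, 6.30 and 5.70 in the EpCAM+, EpCAM-, Klf4- and Oct4- fractions and a log2 difference of -0.93 at the EpCAM gate. Slc36a1, the lysosomal carrier PAT1, stayed between 4.56 and 4.96, while its neighbours Slc36a2 and Slc36a3 were below the floor. Over the whole set, the 14 members that reached the floor without a call ranged over 0.17 to 1.20 on the log2 scale across the arrays. The scatter between probe sets of the same gene, a rough gauge without any variation between cultures, had a median SD of 0.17, 0.17, 0.12 and 0.18 in the Oct4, Klf4, EpCAM and ends comparisons over 5708 genes. As a sign of RNA integrity, the control probe sets at the 3′ and 5′ ends of Gapdh differed by 0.97, 1.04, 1.3 and 1.04 on the log2 scale in the EpCAM+, EpCAM-, Klf4- and Oct4- fractions, those of Tfrc by -1.11, -1.05, -1.29 and -1.28, and those of Actb by -0.07, -0.06, -0.05 and -0.06. The part of RNA integrity in the transporter values was not tested.

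Other genes of amino acid handling were read from 7 lists. Their counts stand beside 2.25% of all genes higher and 3.04% lower at the Oct4 gate, and 5.30% and 4.32% at the Klf4 gate. At the EpCAM gate these shares were 1.95% and 1.12%, and between the ends 7.46% and 6.77%. The lists are short and share some genes, among them Asns, Chac1, Psph and Mthfd2, and none is called different from all genes. Of 23 transporter genes outside the 6 families, 2 were higher at the Oct4 gate, 2 at the Klf4 gate, none at the EpCAM gate and 3 between the ends, and 0 were lower in any of these. Slc6a9, the glycine transporter GlyT1, was 2.66-fold higher in the EpCAM- than in the Klf4- fraction, and Slc25a38, a mitochondrial glycine carrier, 2.04-fold higher. Slc6a15, a neutral amino acid transporter of brain, read between 4.90 and 5.12 in the EpCAM+, EpCAM- and Klf4- fractions. It read 3.52 in the Oct4- fraction, where the neuronal marker sum above was also lowest. The part of neuronal content in the Slc6a15 result was not tested. Slc6a15 and Slc25a13, a mitochondrial aspartate-glutamate carrier, were 3.02-fold and 3.51-fold higher in the EpCAM+ than in the Oct4- fraction.

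Of 19 genes of the amino acid response, 0 were higher and 2 lower at the Oct4 gate, 3 higher and 1 lower at the Klf4 gate, 2 higher and 0 lower at the EpCAM gate, and 6 higher and 2 lower between the ends. Their median log2 difference was -0.15, 0.39, 0.16 and 0.38 in these comparisons, beside the medians and shares over all genes given above. Chac1, an enzyme that breaks down glutathione, had levels of 6.52, 5.77, 3.67 and 4.42 in the EpCAM+, EpCAM-, Klf4- and Oct4- fractions. It was 4.28-fold higher in the EpCAM- than in the Klf4- fraction, and 4.28-fold higher between the ends. Trib3, a pseudokinase that restrains ATF4, had 8.41, 7.14, 5.49 and 5.88 and was 5.76-fold higher in the EpCAM+ than in the Oct4- fraction. Asns, which makes asparagine, was 2.11-fold higher between the ends, Psph, of serine synthesis, 2.59-fold, Herpud1 2.46-fold, and Mthfd2, of mitochondrial one-carbon metabolism, 2.21-fold. Atf4 itself gave 0.47 on the log2 scale, while Ddit4, an inhibitor of mTORC1, and Vldlr, a lipoprotein receptor, were 2.55-fold and 7.03-fold lower. The list therefore held calls in both directions.

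Among 22 genes of amino acid sensing upstream of mTORC1, none was higher in any comparison, and 1 was lower at the Oct4 gate (Rragd, a Rag GTPase, 2.11-fold), 1 at the Klf4 gate and 1 between the ends. Sesn3, a sestrin, was the lower gene in both of the last, by 2.05-fold and 2.90-fold. Of 9 cysteine and glutathione genes, 2 were higher at the Klf4 gate and between the ends. Besides Chac1 this was Cth, which makes cysteine from cystathionine, with levels of 8.84, 8.67, 6.84 and 5.92 in the EpCAM+, EpCAM-, Klf4- and Oct4- fractions and a 7.57-fold higher level in the EpCAM+ than in the Oct4- fraction. Of 9 glutamine, glutamate and proline genes, Gpt2, a mitochondrial alanine transaminase, was 2.37-fold higher at the Klf4 gate and 5.49-fold higher between the ends, where Asns was the other gene called. Of 13 serine, glycine and methionine genes, 3 were higher between the ends, Mtr, the methionine synthase, by 2.79-fold, with Psph and Mthfd2. Mtr was also 3.58-fold higher at the Oct4 gate, and this list had no other call at any gate. Of 11 arginine and branched chain genes, Bckdhb, a subunit of branched chain keto acid dehydrogenase, was the single call, 3.02-fold higher at the Oct4 gate and 2.81-fold lower at the Klf4 gate. Arg1 and Nos2, the arginine-consuming enzymes linked to CAT-2 in macrophages, were below the floor on all arrays.

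**Figure D3:**
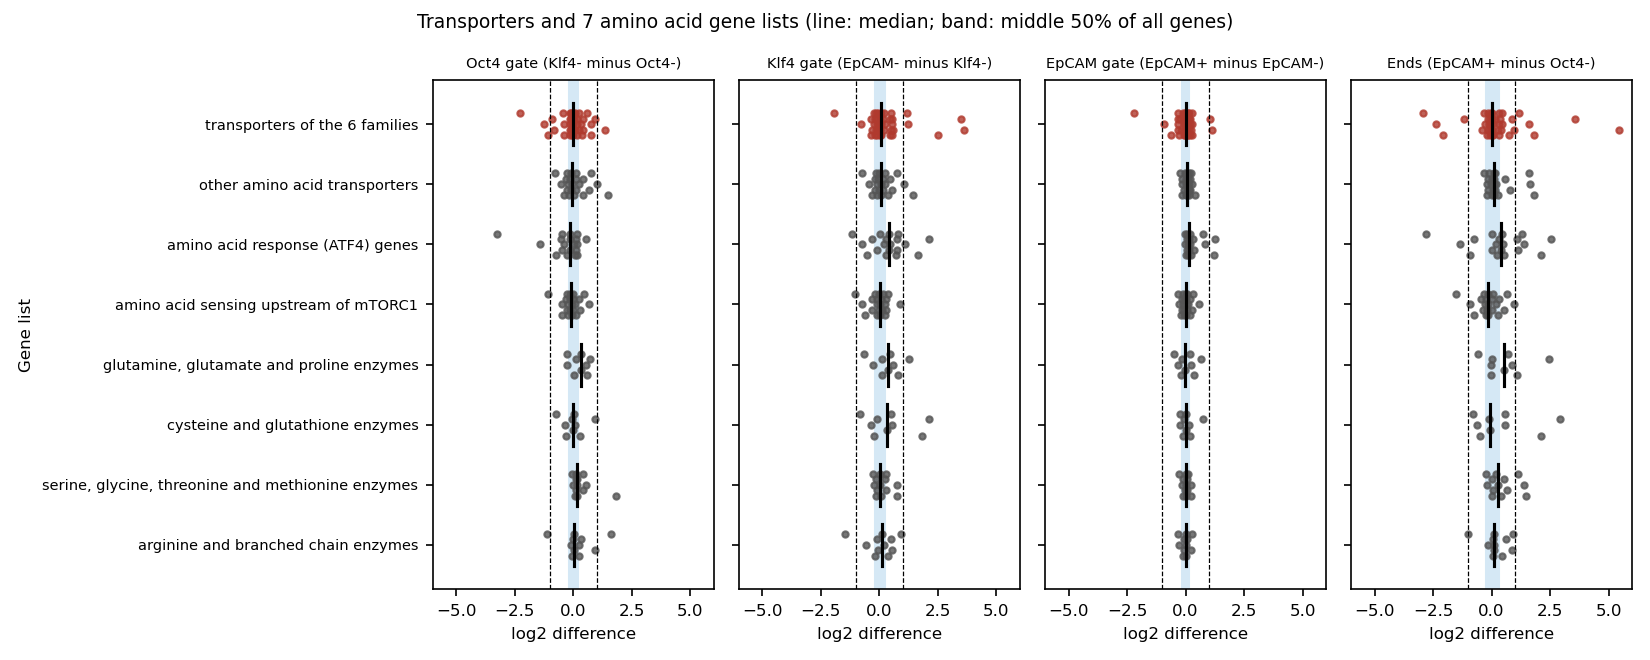
Log2 differences of each gene (points) in the 40 transporters and the 7 amino acid gene lists, in 4 comparisons, with the list median as a black line, 2-fold as dashed lines and the middle 50% of all genes as a band. The medians of the transporters stay within the band in all 4 panels, and the widest points belong to Slc7a3 (5.45 between the ends) and Vldlr (-3.25 at the Oct4 gate).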

How the data were processed

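RNA of 4 sorted fractions was measured on 1 array each, of Affymetrix type by its probe set names, after recovery with the RecoverAll kit and amplification with the Ovation Pico WTA kit, per the labels' protocols. Fixation and amplification can change a transcript's reading. The deposited values are levels from RMA, per the submitters' processing notes, and RMA gives log2 values, which the deposited range fits, with the version not given in the sources used here. They ran from 1.31 to 14.4 with array medians of 4.49 to 4.55. Of 45037 probe sets besides 64 controls, 34945 had 1 gene symbol in the platform annotation, 932 had several and 9160 were unnamed. RefSeq (GRCm38.p6) matched 34741 of those with 1 symbol and changed 0 names. The 40 members had 86 probe sets, and 19 members had 1.

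A difference of 2-fold with the higher level at the floor of 4.53 was the call. No test was possible. Where the dimmer level was at or below 2.94, the fold would be a lower bound, which no named fold was. Some folds were still taken over levels between 2.94 and the floor. Examples are Slc7a3 and Slc38a5 at 3.89 and 3.07 in the Oct4- fraction. Others are Slc38a5 at 3.49 in the Klf4- fraction and Slc7a2 at 3.51 in the EpCAM+ fraction. Members below the floor on all arrays read up to 4.03, so the sizes of such folds are uncertain. Any member could be named, with values in full for those past the rule, and up to 5 called genes a list and comparison. For the amino acid response between the ends, every called gene was named. Members and lists were chosen with earlier results of these data known. The 6 alternatives tried changed the probe set, the floor, the fold or the scaling. The calls were checked on simulated data, which cannot show how much real arrays of the same fraction vary. Python 3.11.15, pandas 2.3.3, numpy 2.4.6 and matplotlib 3.10.9 were used.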

Additional observations from a re-analysis of the deposited data

How the results depend on the processing

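The 21 member differences past 2-fold were recomputed under 6 alternatives. Of 124 recomputed differences, 114 kept their call, 10 lost it and 0 changed direction. Much of this tally was fixed in advance. Removing the floor or lowering the fold to 1.5 only loosened the rule, so the 21 calls in each could not be lost. The 19 recomputed without probe sets suffixed _a_at, _s_at or _x_at were read from the same probe sets as before. A change of floor or fold could not reverse a direction. Slc7a7 had no probe set free of the suffixes _a_at, _s_at and _x_at, nor had Slc3a2, so that alternative gave no value for either. Averaging all probe sets left 0 members lower at the Klf4 gate, against 1 (3.48% of all genes), and gave 6 higher between the ends, against 5 (6.44%), Slc7a1 being added. Without the suffixed probe sets, 1 member was higher at the EpCAM gate, against 2 (1.78% of all genes). With the floor at the 75th percentile (6.87), 0 were higher at the Oct4 gate (against 1), 0 lower at the Klf4 gate (against 1), 1 higher at the EpCAM gate (against 2) and 3 higher between the ends (against 5), beside 1.05%, 2.44%, 0.890% and 4.38% of all genes, since levels under that floor are not counted. At 1.5-fold, 5 were higher at the Oct4 gate, 2 lower at the Klf4 gate, 3 lower at the EpCAM gate and 8 higher between the ends, beside 5.18%, 8.04%, 3.08% and 13.4% of all genes. Scaling on 10 housekeeping genes moved all log2 differences by -0.15 at the Oct4 gate and 0.15 at the EpCAM gate. The median of the members became -0.18 at the Oct4 gate, against -0.03, and 0.18 at the EpCAM gate, against 0.03. This scaling kept all 21 calls. No paired analysis was possible because each fraction had 1 array. Dim signal limits the 16 members below the floor, whose differences were not called.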
